A study of Mus musculus with 11 samples.

Results

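The 8 genes described here, Acot1, Acot2, Acaa1b, Ehhadh, Cpt1a, Pdk4, Fgf21 and Vnn1, are known targets of the nuclear receptor PPAR-alpha in liver, and most of them handle fatty acids. They were taken by symbol from a table of 43346 genes, each symbol matched 1 row, and all 8 were among the 17610 genes with enough counts to be tested. RNA was sequenced from whole liver of FVB/NJ mice with hepatocellular carcinoma (HCC) driven by expression of MET and β-catenin in the liver. The labels divide the libraries by response to an antibody against the checkpoint receptor PD-1 into 6 responders, 4 non-responders and 1 library with the response label "non treatment", called the no treatment library here, whose treatment label nevertheless names anti-PD-1. All 11 livers therefore share the strain, the tumour drivers and the label of the antibody. The labels give neither age nor sex, do not say how much of each liver was tumour, and do not say whether each library came from its own mouse, so the tests below speak only of variation from library to library. The comparison asks how livers that responded to anti-PD-1 differed from livers that did not.

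PPAR-alpha is a receptor for fatty acids and their derivatives that binds DNA together with the retinoid X receptor. In the fasted liver, when fat released from adipose tissue arrives, it switches on the enzymes that burn fatty acids in mitochondria, shorten very long chains in peroxisomes and oxidise chain ends in the endoplasmic reticulum. It also raises the hormone FGF21, which signals the fasted state, and PDK4, which spares glucose by braking pyruvate dehydrogenase.

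Gene counts ran from 17876515 to 40565708 per responder library, from 25542066 to 39941835 per non-responder library, and came to 49884800 in the no treatment library. Hepatocyte markers were abundant in all libraries, with a summed level of 70193.9 to 84691.5 CPM (counts scaled to library size) in responders, 95599 to 127230 CPM in non-responders and 74818.9 CPM in the no treatment library. Most of this sum was Alb, which averaged 56652 CPM in responders and 85699 CPM in non-responders and did not pass (log2 fold change -0.60, edgeR adjusted p = 0.0524). Of the 10 hepatocyte markers 4 rose and 1, Apoa1 (-1.11), fell in responders at an edgeR adjusted p under 0.05. Of all genes tested 4.11% rose and 5.82% fell. By sign, 7 of the 10 markers had a positive log2 fold change and 3 a negative one. Without non-responder 2 none of the hepatocyte markers passed by edgeR. Adipocyte and muscle markers were near 0: the adipocyte sum was at most 0.270 CPM in responders and 0.598 CPM in non-responders, and the muscle sum at most 0.261 and 0.299 CPM. Pancreatic acinar markers summed to 28.05 to 63.0 CPM in responders and 31.8 to 62.6 CPM in non-responders, with Amy2a5 at 0 throughout. Macrophage markers summed to 156 to 535 CPM in responders and 63.4 to 367 CPM in non-responders, endothelial markers to 232 to 372 and 128 to 331 CPM, stellate cell markers to 206 to 384 and 302 to 421 CPM, T cell markers to 3.94 to 7.09 and 2.95 to 11.7 CPM, and cholangiocyte markers to 17.4 to 25.8 and 25.7 to 69.8 CPM. Of these other markers Lyve1 of endothelium, Trac of T cells and Cela2a of acinar cells fell in responders, with log2 fold changes of -1.44, -1.57 and -0.79 and edgeR adjusted p of 0.0149, 0.0427 and 0.0363. Yet 5 of 7 endothelial markers had a positive log2 fold change, with a median of 0.29. Trac, at 0.135 to 1.22 CPM, and Cela2a, at 0.868 to 2.29 CPM, were near the floor. Without non-responder 2 no marker of these lists passed by edgeR. The part of all these markers in the results was not tested, and in bulk RNA fewer cells of a type cannot be told apart from less RNA per cell. Reads of non-responder 1 lay toward the 3′ ends of transcripts: its median log2 ratio of read density in the later over the earlier exons was 1.16, against -0.13 to 0.08 in the other treated libraries, over 6013 transcripts.

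The members did not move as a block. Acot1, Acaa1b and Ehhadh, which code for a thioesterase that acts on fatty acyl-CoA and for enzymes of peroxisomal beta-oxidation, rose in responders by 3.45, 3.05 and 2.51 times. No member fell by edgeR; Fgf21 was under an unadjusted p of 0.05 and passed with DESeq2, and Vnn1 passed with limma-voom. Fgf21, Pdk4 and Vnn1 had lower means in responders but did not pass by edgeR, and Acot2 and Cpt1a had means close to each other in both groups. Thus 3 of 8 members rose, where 4.11% of all genes tested rose and 5.82% fell at an edgeR adjusted p under 0.05 (9.93% in either direction). In the same 3 members every responder lay above every non-responder, as in 5.6% of all genes tested, and in no member did every responder lie below, as in 5.66%. Over the members the median log2 fold change, responder over non-responder, was -0.03, beside -0.02 over all genes tested.

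**Figure D1:**
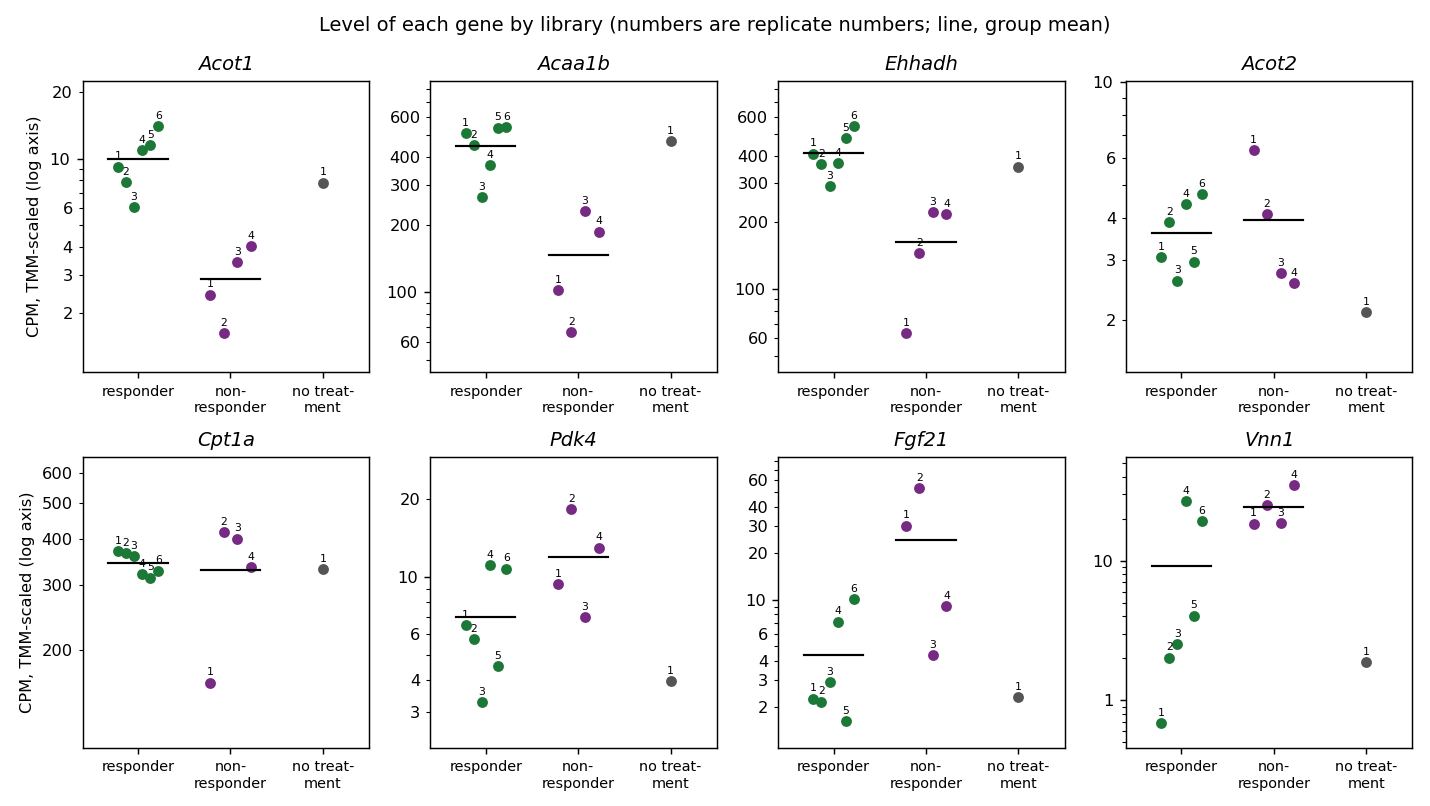
CPM (TMM-scaled, log axis) of each gene in each library, by response label; numbers beside points are replicate numbers and the line is the group mean. The 6 responders sit above the 4 non-responders for Acot1, Acaa1b and Ehhadh, while the groups overlap for the other 5 genes.

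Acot1, on chr12:84009502-84017670 of mm10 (plus strand, ENSMUSG00000072949), codes for a cytosolic thioesterase that releases free fatty acid from long-chain acyl-CoA. It had 60 to 566 counts per library. Its level ran from 6.03 CPM, with a median of 10.1, to 14.0 CPM in responders, against 2.43, 1.63, 3.41 and 4.02 CPM in non-responders 1 to 4, and was 7.81 CPM in the no treatment library. The groups did not overlap: the lowest responder, replicate 3, was above the highest non-responder, replicate 4. Responders averaged 9.95 ± 2.85 CPM (SD, n = 6) and non-responders 2.87 ± 1.05 CPM (SD, n = 4). The log2 fold change was 1.79 ± 0.29 (SE), with an edgeR adjusted p of 0.0149. It passed in each of 10 fits that left out 1 library, with edgeR adjusted p between 0.0130 and 0.0492.

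Acot2, its neighbour on chr12:83987861-83993873 (plus strand, ENSMUSG00000021226), codes for the mitochondrial thioesterase of the same family. Its level ran from 2.61 CPM, with a median of 3.47, to 4.69 CPM in responders, against 6.31, 4.11, 2.74 and 2.57 CPM in non-responders 1 to 4, and was 2.11 CPM in the no treatment library. The groups overlapped, and the highest library was non-responder 1. Means were 3.60 ± 0.843 CPM in responders (SD, n = 6) and 3.93 ± 1.73 CPM in non-responders (SD, n = 4), a log2 fold change of -0.12 ± 0.28 with an edgeR adjusted p of 0.809. Without non-responder 1, whose reads lay toward the 3′ ends, the log2 fold change of Acot2 was 0.19, so its sign rests on that library. By exon of Acot2, the responder mean was higher in 2 of 3. It was lower in exon 3, the last, at 2.08 ± 0.566 CPM against 2.75 ± 1.95 CPM in non-responders (SD).

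The 2 genes are close copies, which bears on how their reads are assigned. Over 1236 aligned coding bases 95.6% were identical, and the longest identical run, coding bases 887 to 1159 of Acot1, is shown because a read of 50 bases from it fits both genes; all of its bases are shared.
Acot1 coding bases shared with Acot2: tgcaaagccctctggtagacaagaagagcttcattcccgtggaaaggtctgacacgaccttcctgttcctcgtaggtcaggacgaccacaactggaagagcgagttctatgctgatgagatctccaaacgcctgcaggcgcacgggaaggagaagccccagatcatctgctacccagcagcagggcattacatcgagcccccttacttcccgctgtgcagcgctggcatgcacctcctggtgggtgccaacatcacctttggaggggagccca
Of all windows of 50 bases in the Acot1 transcript, 23.7% also occur in Acot2, and 24.5% of the windows of Acot2 occur in Acot1. Over all other genes, which include further members of the Acot family, the shares were 33.6% for Acot1 and 27.7% for Acot2. The Acot1 transcript searched had 2272 bases, while the length given with the counts was 1559. The share over the counted bases of Acot1 may therefore differ. How the authors assigned such reads is not given in the sources used here, so both levels are uncertain. The ratio of Acot1 to Acot2 counts was chosen after values were seen, when Acot1 alone already separated the groups. It is built from the same counts, so it cannot settle how the reads were assigned. The groups did not overlap in this ratio. It ran from 2.03 to 3.89 in responders, was 0.386, 0.397, 1.24 and 1.56 in non-responders 1 to 4, and was 3.71 in the no treatment library. Its mean log2 value was 1.45 ± 0.33 in responders (SD, n = 6) and -0.44 ± 1.07 in non-responders (SD, n = 4). The difference of 1.88 had an exact two-sided permutation p of 0.00952, the smallest this design can give, and 0.0190 after adjustment over the 2 ratios tested. With the counts of Acot1 and Acot2 summed into 1 row the log2 fold change was 0.99, with an edgeR adjusted p of 0.0213. By exon of Acot1, the responder mean was higher in 3 of 3, and the groups did not overlap in 2 of them.

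Acaa1b, on chr9:119148023-119157093 (minus strand, ENSMUSG00000010651), codes for a peroxisomal thiolase, the enzyme that cuts acetyl-CoA from the shortened chain at the last step of each cycle. Its level ran from 265 CPM, with a median of 482, to 545 CPM in responders, against 103, 66.4, 230.0 and 187 CPM in non-responders 1 to 4, and was 473 CPM in the no treatment library. All responders were above all non-responders, the closest being responder 3 and non-responder 3. Responders averaged 447 ± 111 CPM (SD, n = 6) and non-responders 146 ± 75.1 CPM (SD, n = 4). The log2 fold change was 1.61 ± 0.34 with an edgeR adjusted p of 0.0213. The call ended when responder 1, 2 or 5 or non-responder 2 was left out, with edgeR adjusted p of 0.0504, 0.0514, 0.0537 and 0.0624.

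Acaa1b has a near-identical relative, Acaa1a, and an antisense neighbour. Acaa1a lies on the same chromosome, and 96.5% of 1272 aligned coding bases are identical. Exons 4, 5, 9 and 10 of Acaa1b are letter for letter in Acaa1a. Of the 50-base windows of an Acaa1b transcript of 1689 bases, 35.5% occur in Acaa1a, while 46.2% occur in any other gene. The length given with the counts was 1962 bases. Exon 9 is printed because its reads were nearly missing from the table.
Acaa1b exon 9, chr9:119149271-119149450, minus strand: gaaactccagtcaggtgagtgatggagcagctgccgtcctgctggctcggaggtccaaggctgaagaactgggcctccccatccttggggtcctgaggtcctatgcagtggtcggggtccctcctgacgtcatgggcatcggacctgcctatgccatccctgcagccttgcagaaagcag
This exon of 180 bases averaged 32 counts per library over all 11 libraries, against 1765 in exon 8, which has 191 bases and is not identical in Acaa1a. Exon 10, also identical, averaged 99 counts over 56 bases, while the identical exons 4 and 5 kept 750.0 and 456 counts over 80 and 43 bases. The responder mean was higher in all 12 exons of Acaa1b, and the groups did not overlap in 11, exon 9 being the exception. On the other strand, Dlec1 shares 224 of 1962 exon bases, or 11.4%, of Acaa1b. Whether the counting used strand is not given in the sources used here, so reads of that stretch cannot be assigned. Dlec1 had 13407 counts over the 11 libraries, beside 130967 for Acaa1b.

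**Figure D2:**
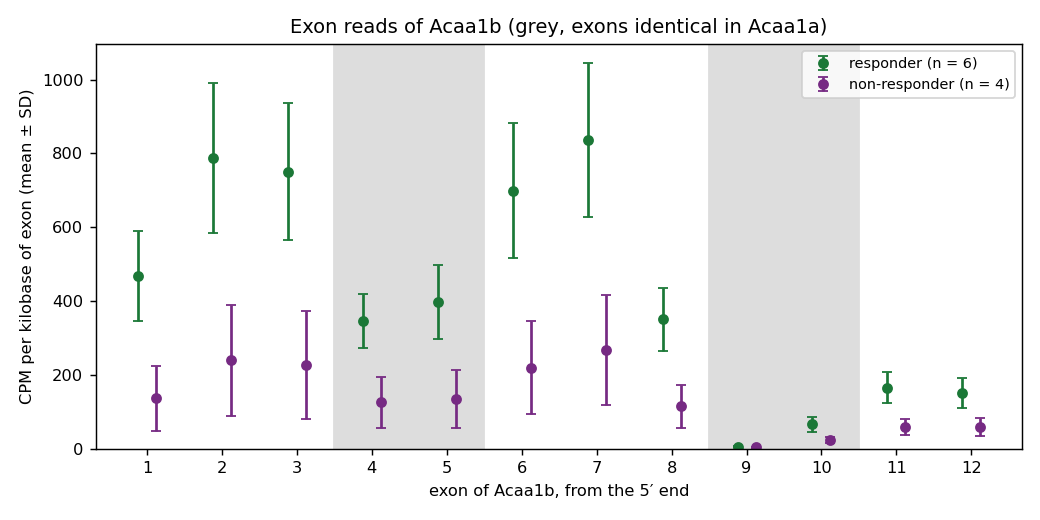
CPM per kilobase of each exon of Acaa1b, as mean and SD of 6 responders and of 4 non-responders, in transcript order; grey marks the exons identical in Acaa1a. Responder means lie above non-responder means in all 12 exons, and exon 9 is near 0 in both groups.

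Acaa1a itself, which also codes for a peroxisomal thiolase, averaged 171 ± 20.2 CPM in responders (SD, n = 6) and 100.2 ± 18.2 CPM in non-responders (SD, n = 4). It rose too, with a log2 fold change of 0.77 ± 0.14 and an edgeR adjusted p of 0.0168. The ratio of Acaa1b to Acaa1a counts ran from 1.76 to 3.29 in responders, was 1.22, 0.763, 1.87 and 1.75 in non-responders 1 to 4, and was 2.76 in the no treatment library. The groups overlapped narrowly, at responder 3 and non-responder 3. The mean log2 ratio was 1.35 ± 0.30 in responders (SD, n = 6) and 0.40 ± 0.59 in non-responders (SD, n = 4), and the difference of 0.95 had an exact two-sided permutation p of 0.0190. After adjustment over the 2 ratios this exact permutation p was also 0.0190. This ratio too was chosen after values were seen and is built from counts of uncertain assignment. Summed into 1 row, the pair had a log2 fold change of 1.33 and an edgeR adjusted p of 0.0187.

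Ehhadh, on chr16:21761287-21787844 (minus strand, ENSMUSG00000022853), codes for the peroxisomal bifunctional enzyme that hydrates the enoyl-CoA and oxidises the product. Its level ran from 292 CPM, with a median of 389, to 543 CPM in responders, against 63.5, 146, 223 and 219 CPM in non-responders 1 to 4, and was 357 CPM in the no treatment library. The groups did not overlap, and non-responder 1 was the lowest library by far. Responders averaged 409.6 ± 89.3 CPM (SD, n = 6) and non-responders 163 ± 75.1 CPM (SD, n = 4). The log2 fold change was 1.33 ± 0.32 with an edgeR adjusted p of 0.0296. Ehhadh has no 50-base window in common with another gene, and the responder mean was higher, with no overlap of groups, in 7 of 7 exons. As for Acaa1b, its call ended without responder 1, 2 or 5 or without non-responder 2, with edgeR adjusted p of 0.0587, 0.0581, 0.0666 and 0.0906. Leaving out non-responder 2 left 38 genes that rose and 41 that fell among all genes tested, against 723 and 1025 with all libraries. With the number in the library titles as a covariate, which runs from 1 to 29 in responders and from 26 to 37 in non-responders, Acot1, Acaa1b and Ehhadh did not pass, with edgeR adjusted p of 0.245, 0.427 and 0.427.

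The promoters of the 3 genes that rose are given as the 250 bases before the RefSeq start (GRCm38.p6), where 7 of the 8 members, all but Vnn1, matched an entry. They are shown because these genes moved together, and because PPAR-alpha is known to bind a direct repeat of the hexamer AGGTCA spaced by 1 base.
Acot1 promoter, chr12:84009252-84009501, plus strand: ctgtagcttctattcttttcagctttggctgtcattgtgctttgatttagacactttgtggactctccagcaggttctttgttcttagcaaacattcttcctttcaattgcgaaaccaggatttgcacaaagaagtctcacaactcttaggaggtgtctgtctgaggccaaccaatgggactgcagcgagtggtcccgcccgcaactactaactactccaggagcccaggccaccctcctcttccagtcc
Acaa1b promoter, chr9:119157094-119157343, minus strand: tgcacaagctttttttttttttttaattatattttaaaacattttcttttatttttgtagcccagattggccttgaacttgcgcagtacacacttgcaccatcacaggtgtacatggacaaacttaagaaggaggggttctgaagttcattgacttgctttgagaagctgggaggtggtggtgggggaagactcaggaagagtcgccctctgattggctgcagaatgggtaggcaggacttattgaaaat
Ehhadh promoter, chr16:21787835-21788084, minus strand: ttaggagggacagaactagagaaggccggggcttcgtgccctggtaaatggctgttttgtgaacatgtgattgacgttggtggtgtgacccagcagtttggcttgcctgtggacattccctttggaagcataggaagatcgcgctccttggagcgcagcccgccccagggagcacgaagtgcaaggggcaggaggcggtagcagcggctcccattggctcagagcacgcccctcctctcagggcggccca
None of the 7 windows held the repeat, searched as 2 copies of AGGNCA separated by 1 base, on either strand; it occurs in 0.338% of 32851 promoters of this length. The single hexamer AGGTCA, part of that longer pattern, was found on either strand in 14.0% of promoters and among the members in Cpt1a only. That these letters are not in the window says nothing of elements elsewhere.

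Cpt1a, on chr19:3323301-3385732 (plus strand, ENSMUSG00000024900), codes for the carnitine transferase of the outer mitochondrial membrane, the gate for long-chain fatty acids. Its promoter holds AGGTCA on the minus strand, 94 to 89 bases before the start, in capitals here as its reverse complement.
Cpt1a promoter, chr19:3323051-3323300, plus strand: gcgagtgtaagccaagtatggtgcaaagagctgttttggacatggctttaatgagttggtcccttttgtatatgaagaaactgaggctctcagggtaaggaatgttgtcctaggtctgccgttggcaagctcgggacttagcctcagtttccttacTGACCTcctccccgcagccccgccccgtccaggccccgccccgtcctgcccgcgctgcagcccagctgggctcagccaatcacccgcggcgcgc
Its level ran from 314 CPM, with a median of 343, to 369 CPM in responders, against 163, 416, 399.7 and 335 CPM in non-responders 1 to 4, and was 331 CPM in the no treatment library. Responders lay inside the range of the non-responders, of which replicate 1 was far below the rest and replicates 2 and 3 were above every responder. Means were 343 ± 24.6 CPM in responders (SD, n = 6) and 328 ± 116 CPM in non-responders (SD, n = 4), a log2 fold change of 0.06 ± 0.22 with an edgeR adjusted p of 0.890. Without non-responder 1, whose reads lay toward the 3′ ends, the log2 fold change was -0.16. Responders varied little, with a coefficient of variation of 7.18%, where 500 genes of like level had a median of 13.2%.

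Pdk4, on chr6:5483351-5496309 (minus strand, ENSMUSG00000019577), codes for a kinase that switches off pyruvate dehydrogenase. Its level was 6.53, 5.73, 3.27, 11.1, 4.51 and 10.8 CPM in responders 1 to 6, against 9.37, 18.2, 7.002 and 12.99 CPM in non-responders 1 to 4, and 3.95 CPM in the no treatment library. Responders 4 and 6 lay among the non-responders, and the other responders lay below all of them. Means were 6.98 ± 3.25 CPM in responders (SD, n = 6) and 11.9 ± 4.89 CPM in non-responders (SD, n = 4), a log2 fold change of -0.78 ± 0.36 with an edgeR adjusted p of 0.188.

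Fgf21, on chr7:45613907-45615490 (minus strand, ENSMUSG00000030827), codes for a hormone of the fasted or stressed liver, which PPAR-alpha and the stress factor ATF4 are known to induce. Its promoter is shown with its match to the ATF4 element TGATGNAA in capitals, read as TGATGCAA on the other strand, 139 to 132 bases before the start. This element occurs, on either strand, in 3.45% of the promoters.
Fgf21 promoter, chr7:45615491-45615740, minus strand: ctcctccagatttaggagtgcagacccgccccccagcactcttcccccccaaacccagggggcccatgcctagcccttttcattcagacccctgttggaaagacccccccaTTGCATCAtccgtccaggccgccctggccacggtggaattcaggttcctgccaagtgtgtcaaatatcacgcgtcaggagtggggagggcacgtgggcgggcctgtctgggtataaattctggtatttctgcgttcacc
Its level was 2.26, 2.16, 2.89, 7.18, 1.62 and 10.1 CPM in responders 1 to 6, against 30.3, 53.3, 4.33 and 9.05 CPM in non-responders 1 to 4, and 2.31 CPM in the no treatment library. Non-responders 1 and 2 were far above the rest, while responders 4 and 6 overlapped non-responders 3 and 4. Means were 4.36 ± 3.45 CPM in responders (SD, n = 6) and 24.3 ± 22.4 CPM in non-responders (SD, n = 4). The log2 fold change was -2.48 ± 0.72, the largest in size among the 8 members, but its edgeR adjusted p of 0.0537 missed the threshold. It passed without responder 6 or without non-responder 3, with edgeR adjusted p of 0.0323 and 0.0304, and with DESeq2, at an adjusted p of 0.0163.

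Vnn1, on chr10:23894688-23905343 (plus strand, ENSMUSG00000037440), codes for pantetheinase, a membrane-anchored enzyme that makes cysteamine and pantothenate. Its level was 0.685, 2.02, 2.52, 26.9, 4.05 and 19.4 CPM in responders 1 to 6, against 18.5, 25.0, 18.7 and 34.9 CPM in non-responders 1 to 4, and 1.88 CPM in the no treatment library. Responders divided into 4 low libraries and the high replicates 4 and 6, which lay within the non-responder range; the highest responder was 39.3 times the lowest, against 1.89 times in non-responders. The responder coefficient of variation was 119.5%, where genes of like level had a median of 11.8%. Means were 9.26 ± 11.1 CPM in responders (SD, n = 6) and 24.3 ± 7.69 CPM in non-responders (SD, n = 4), a log2 fold change of -1.40 ± 0.84 with an edgeR adjusted p of 0.316. With limma-voom and quality weights the log2 fold change was -2.95 with an adjusted p of 0.00620, and with the title number as a covariate it was 0.82 with an edgeR adjusted p of 0.819. Alpha-fetoprotein, an oncofetal product of liver tumours, showed the same pair of responders: Afp was 121.5 and 99.8 CPM in responders 4 and 6, at most 2.28 CPM in the other responders, 116 to 381 CPM in non-responders and 1.70 CPM in the no treatment library. Its part in the values of Vnn1, Fgf21 and Pdk4 was not tested.

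The plot of fits with each library left out in turn gives the range of these values. The 3 genes that rose kept a positive log2 fold change in all 10 fits, Pdk4, Fgf21 and Vnn1 kept a negative one, and Acot2 and Cpt1a had both signs.

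**Figure D3:**
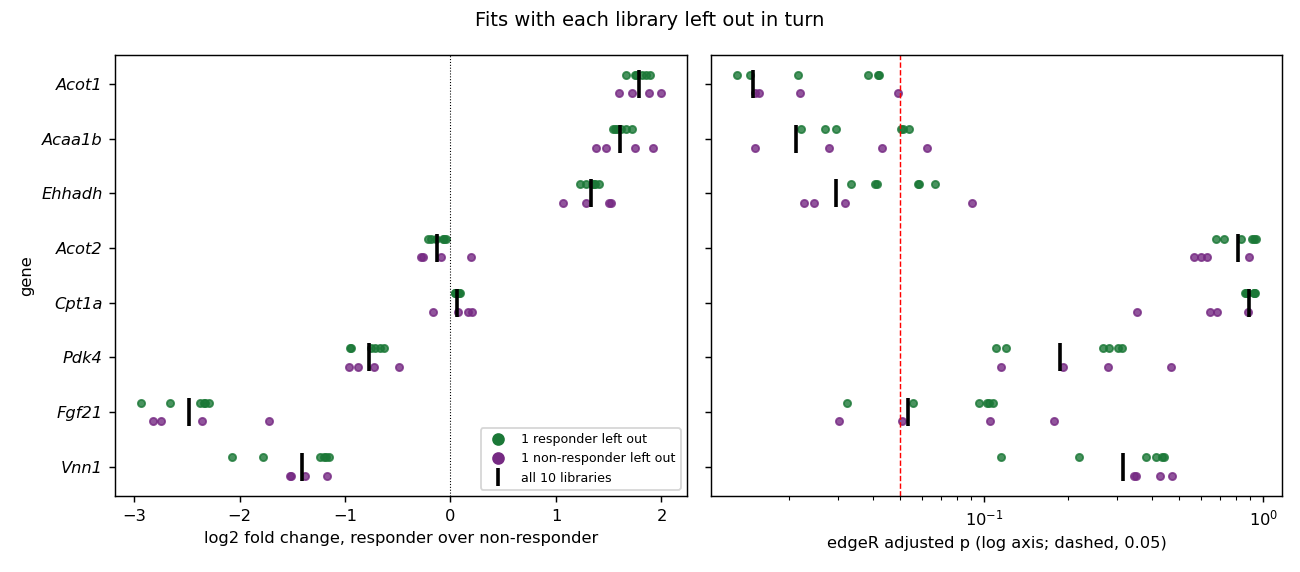
Log2 fold change of each member (left) and its edgeR adjusted p on a log axis (right) with each of the 10 libraries left out in turn; green, a responder left out, purple, a non-responder left out, bar, all 10 libraries. Acot1 stays left of 0.05 in all 10 fits, Acaa1b and Ehhadh in 6 each and Fgf21 in 2.

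**Figure D4:**
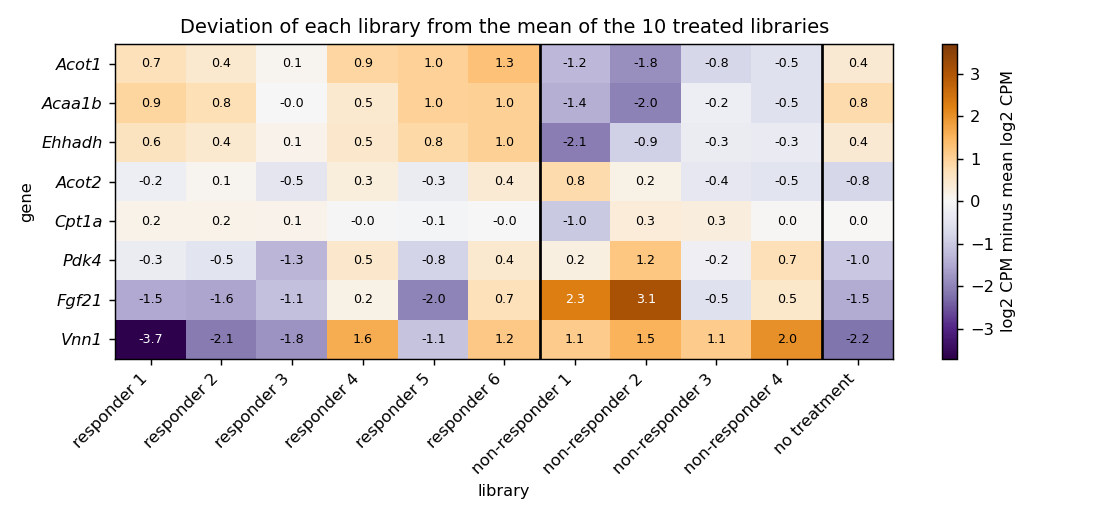
Log2 CPM of each gene in each library minus its mean over the 10 treated libraries (purple below, orange above), with responders at the left, non-responders next and the no treatment library at the right. Acot1, Acaa1b and Ehhadh run opposite to Pdk4, Fgf21 and Vnn1 in most libraries, but responders 4 and 6 are above the mean in both sets. In non-responder 3, Pdk4 and Fgf21 are below the mean along with Acot1, Acaa1b and Ehhadh, and only Vnn1 of the second set is above it.

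The libraries rank differently in these 2 sets of genes, as the map of deviations shows. Responder 6 was the highest treated library for Acot1, Acaa1b and Ehhadh, and non-responder 2 the highest for Cpt1a, Pdk4 and Fgf21 and the lowest for Acot1 and Acaa1b. As a measure of likeness, each gene was centred and divided by its SD over the 11 libraries on the log2 scale, and the mean absolute difference between genes was taken. It was 0.236 SD units between Acot1 and Acaa1b, 0.306 between Acot1 and Ehhadh, and 0.308 between Acaa1b and Ehhadh. It was 0.477 between Pdk4 and Fgf21, 0.496 between Pdk4 and Vnn1, and 0.592 between Fgf21 and Vnn1, and from 1.34 to 1.49 between a gene of the first set and one of the second. The points share library and depth. The 2 sets were formed by the direction of the group difference in these same libraries, so the distances within and between them are not separate evidence. For scale, the median difference from 11415 genes outside the members ran from 0.994 SD units for Ehhadh to 1.11 for Vnn1 over these sets. For each gene of both sets, the nearest of those outside genes was closer than any other member.

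Outside the members, the genes most like each were sought among 11415 genes by the same measure. Nearest to Acaa1b was Decr1, a mitochondrial reductase of unsaturated acyl-CoA, at 0.149 SD units, and then Fahd1, at 0.168. Nearest to Acot1 were Mpp6 (0.175) and Hyal1 (0.182), to Ehhadh Fam214a (0.163) and Vwa8 (0.171), and to Acot2 Grwd1 (0.294) and Poll (0.308). Nearest to Cpt1a were Mup4 (0.157), one of a family of near-identical genes, and Met (0.168), the gene of the receptor MET. Whether the Met counts hold reads of the MET that drives these tumours was not tested. Cpt1a, Mup4 and Met were each lowest in non-responder 1, so that library weighs heavily in both likenesses. Mup4 was at 0 there and entered with a pseudocount of 0.01 CPM. It had 11.1 and 13.6 CPM in non-responders 2 and 3 and at most 3.20 CPM in the other libraries. Nearest to Fgf21 were App, the amyloid precursor protein gene (0.166), and Itga3 (0.186), to Pdk4 Srp19 (0.238) and Chmp6 (0.252), and to Vnn1 Hao2, a peroxisomal hydroxyacid oxidase (0.201), and Slc16a13 (0.206).

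Levels of different genes were compared per length, as RPKM from the authors' table. The order of the means over 11 libraries was Acaa1b at 116 RPKM, Ehhadh at 70.3, Cpt1a at 53.4, Fgf21 at 8.80, Vnn1 at 4.08, Acot1 at 3.10, Pdk4 at 1.68 and Acot2 at 1.13 RPKM. Every neighbouring pair in this order overlapped in range over libraries. The peroxisomal enzymes and Cpt1a thus stood apart in level from the low group of Vnn1, Acot1, Pdk4 and Acot2: the lowest library of Acaa1b, Ehhadh and Cpt1a had 24.4, 16.1 and 29.03 RPKM, above the 10.1, 5.88, 3.75 and 2.198 RPKM of the highest libraries of Vnn1, Acot1, Pdk4 and Acot2. Fgf21, from 1.18 to 41.3 RPKM, spanned both.

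The no treatment library lay within the responder range for 7 of 8 members, as did 74.8% of all genes tested, and within the non-responder range for 1, Cpt1a, against 48.4% of all genes tested. For Acot1, Acaa1b and Ehhadh it was above all 4 non-responders, and for Pdk4, Fgf21 and Vnn1 below all 4. Acot2 was the exception, below all 10 treated libraries, as 7.98% of all genes tested were, while no member lay above all 10, as 8.17% of genes did. This is 1 library with no replicate, so no test was made.

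Beyond the members, 9 lists of pathway genes held 105 genes, of which 104 were tested. In responders 21 of them rose (20.2%) and 2 fell (1.92%), against 4.11% and 5.82% of all genes tested, and 81 did not pass. Their median log2 fold change was 0.32. Without non-responder 2, 1 gene of these lists rose and 1 fell. The lists were chosen with earlier results of these data known, and also hold receptors of FGF21 and relatives of the members. Beside them, 4 of the 10 hepatocyte markers rose and 1 fell, with a median log2 fold change of 0.85.

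The receptor level itself did not pass. Ppara averaged 162 ± 20.5 CPM in responders (SD, n = 6) and 112 ± 50.7 CPM in non-responders (SD, n = 4), with a log2 fold change of 0.53 ± 0.27 and an edgeR adjusted p of 0.227. Of the receptor and its partners 1 of 14 rose, where 4.11% of all genes tested rose, and none fell, with a median log2 fold change of 0.23: the coactivator gene Ppargc1b averaged 9.70 ± 2.01 CPM in responders and 4.403 ± 2.68 CPM in non-responders (log2 fold change 1.14 ± 0.32, edgeR adjusted p = 0.0448). Its groups overlapped, with responders from 6.91 CPM and non-responders up to 8.36 CPM. Without non-responder 1, or without non-responder 2, none of the 14 passed by edgeR. The transcription factor gene Creb3l3 and the partner gene Rxra had log2 fold changes of 0.48 and 0.26, with edgeR adjusted p of 0.0778 and 0.148.

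The peroxisomal list had the most calls, with 8 of 18 tested genes rising, none falling and a median log2 fold change of 0.70. Of all genes tested 4.11% rose and 5.82% fell. Ech1, an isomerase for unsaturated chains, averaged 229 ± 20.1 CPM in responders (SD, n = 6) and 139.8 ± 16.3 CPM in non-responders (SD, n = 4), a log2 fold change of 0.71 ± 0.12 with an edgeR adjusted p of 0.0149. Also rising were Acaa1a, Pecr, Decr2, Pex11a, Acox3 and Crot. Without non-responder 2 none of the 18 passed, and without non-responder 1 there were 7.

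In the mitochondrial list 3 of 20 rose, where 4.11% of all genes tested rose. Of the 20, 18 had a positive log2 fold change, and the median was 0.37. The 3 were Cpt2, which reforms acyl-CoA inside the mitochondrion (0.71 ± 0.17, edgeR adjusted p = 0.0314), Decr1 (0.53, edgeR adjusted p = 0.0340) and the dehydrogenase gene Acadm (0.61, edgeR adjusted p = 0.0381). Cpt2 averaged 132 ± 18.8 CPM in responders (SD, n = 6) and 80.6 ± 20.7 CPM in non-responders (SD, n = 4), whereas its partner at the outer membrane, Cpt1a, did not pass.

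In the endoplasmic reticulum list 1 of 7 rose and none fell, where 4.11% of all genes tested rose and 5.82% fell. The gene that rose was the fatty acid omega-hydroxylase gene Cyp4a32 (log2 fold change 1.27 ± 0.21, edgeR adjusted p = 0.0149). The median of the list, also 1.27, is the value of this same gene. Cyp4a12b (1.73 ± 0.79) and Cyp4a31 (-1.05 ± 0.49) did not pass, with edgeR adjusted p of 0.192 and 0.195, and the Cyp4a genes are close copies whose reads may be split. Of the uptake and activation genes 3 of 11 rose, with a median of 0.06: the transporter and ligase genes Slc27a2 (0.79, edgeR adjusted p = 0.0237) and Slc27a5 (0.88, edgeR adjusted p = 0.0318), and the synthetase gene Acsl1 (0.96, edgeR adjusted p = 0.0352). Of the 6 ketone body genes none passed by edgeR, although 4 were under an unadjusted p of 0.05, DESeq2 called 3 and limma-voom 5. Their median was 0.10, and the thiolase gene Acat1 had a log2 fold change of 0.69 with an edgeR adjusted p of 0.0593.

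Other PPAR-alpha targets went both ways, with 2 of 14 rising, 2 falling and a median of -0.15. Of all genes tested 4.11% rose and 5.82% fell. Retsat, a retinol saturase, averaged 470 ± 125 CPM in responders (SD, n = 6) and 139 ± 55.5 CPM in non-responders (SD, n = 4), a log2 fold change of 1.76 ± 0.29 with an edgeR adjusted p of 0.0149. Gpd1, a glycerol phosphate dehydrogenase, rose by 0.51 on the log2 scale (edgeR adjusted p = 0.0438). Vnn3, the neighbour and relative of Vnn1, fell: it averaged 9.68 ± 1.90 CPM in responders and 22.9 ± 6.24 CPM in non-responders, for a log2 fold change of -1.24 ± 0.19 with an edgeR adjusted p of 0.0147. The lipid carrier gene Fabp4, known from adipocytes and macrophages, also fell (-1.45, edgeR adjusted p = 0.0449).

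Of 8 genes for receptors of FGF21 and for other factors that induce it, 2 rose, both on the receptor side, none fell, and the median was 0.29. The coreceptor gene Klb averaged 40.6 ± 10.02 CPM in responders (SD, n = 6) and 23.5 ± 4.36 CPM in non-responders (SD, n = 4), a log2 fold change of 0.79 ± 0.19 with an edgeR adjusted p of 0.0302. The receptor gene Fgfr2 averaged 42.9 ± 10.7 CPM in responders and 15.8 ± 4.79 CPM in non-responders, for a log2 fold change of 1.44 ± 0.24 with an edgeR adjusted p of 0.0149. Fgfr4, the main FGF receptor of hepatocytes, was at 0.46 with an edgeR adjusted p of 0.0662. Among 10 tested relatives of the members 2 rose, Acaa1a and the kinase gene Pdk1 (0.99 ± 0.23, edgeR adjusted p = 0.0249), and 1, Vnn3, fell, with a median of -0.13.

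**Figure D5:**
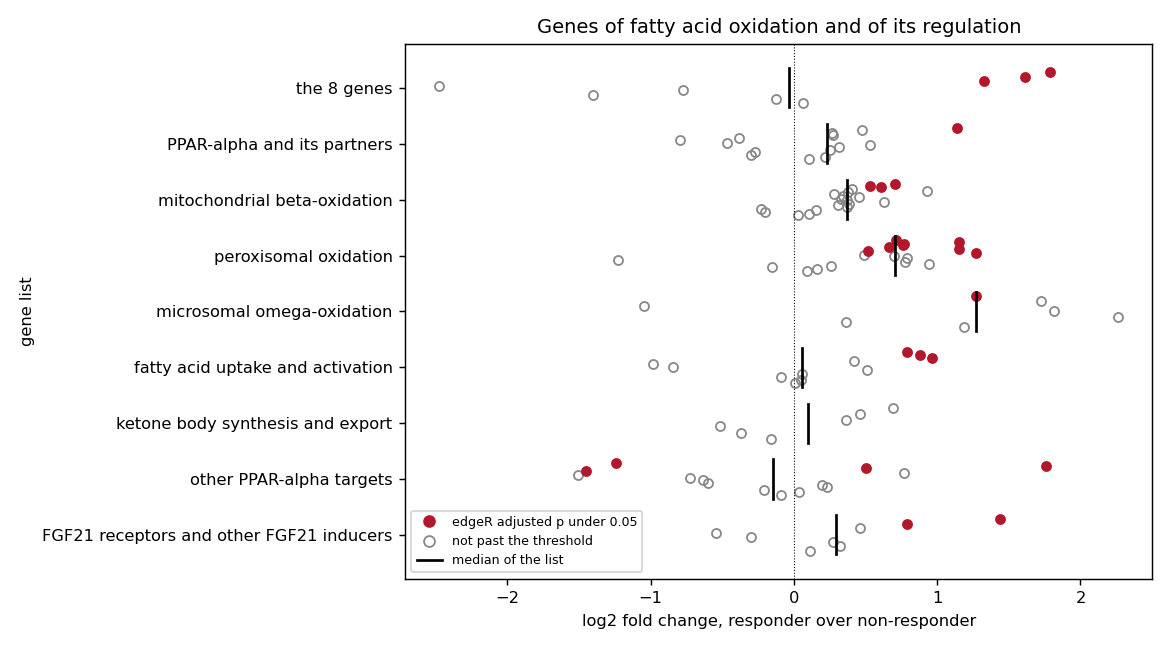
Log2 fold change, responder over non-responder, of each tested gene in the 8 genes and in the pathway lists; filled points passed an edgeR adjusted p under 0.05 and bars are list medians. The peroxisomal list holds 8 filled points, all above 0, and the ketone body list holds none.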

How the data were processed

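Liver RNA was isolated with TRIzol and turned into Illumina TruSeq libraries, as the labels' protocols state. Per the submitters' processing notes the genome build was mm10 and FastQC was run; for the aligner, the counter, the annotation release and the use of strand the sources used here give nothing. Per the file headers, the authors deposited a raw count and an RPKM value for each gene in each library, and in another table a raw count for each exon.

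The 6 responder and 4 non-responder libraries were compared by the quasi-likelihood F test of edgeR 4.0.16 (R 4.3.3), with robust estimates, after filterByExpr and with TMM factors. Benjamini-Hochberg adjustment covered all 17610 genes tested, at a threshold of 0.05. The log2 fold change is responder over non-responder. CPM values are TMM-scaled, and RPKM served only to order genes by level. Count ratios were compared with exact permutation tests in scipy 1.17.1. Replicate numbers are in accession order. No library was taken for a copy of another, because in all 21 within-group pairs the median chi-square over genes was 4.27 or more times its value under counting noise.

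The members, lists and tests were chosen with earlier results of these data known; the 2 ratios, Afp and a 3′ coverage covariate were chosen after values were seen. Named genes are the members, the 3 genes with the smallest p of each list (with further genes called in the peroxisomal list, and Ppara and Fabp4), and the 2 genes most like each member; a few of these genes are not reported here. Promoters are RefSeq sequences (GRCm38.p6), and exon and coding sequences come from GENCODE M21. Alternatives were other scalings and filters, DESeq2 1.42.0, limma 3.58.1 voom with quality weights, no robust estimate, the title number as a covariate, the no treatment library in the fit, summed exon counts, summed relatives and each library left out. On simulated counts, edgeR called 7 of 66 genes set to differ by 1.5 times, 28 of 67 by 2 times, 56 of 66 by 4 times, and 6 of 17326 set not to differ. The simulated counts had the same spread per gene in both groups, few genes set to differ and no library like non-responder 1. These shares need not hold for the real libraries.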

Additional observations from a re-analysis of the deposited data

Results flagged for a closer look

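The 3′ coverage index of the 4 non-responder libraries stood out because of 1 library: the gap from non-responder 1 to its nearest neighbour was 0.972 of the whole range. Among 18 groups checked this was the only one, and chance flags about 1 in 20 groups. For Acot1, Acaa1b and Ehhadh the calls held without non-responder 1, at log2 fold changes of 1.72, 1.47 and 1.06.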

How the results depend on the processing

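Of the alternatives, RLE, upper quartile and total count scaling, the no treatment library in the fit and summed exon counts changed no member's call. With the title number as a covariate, Acot1 (2.46), Acaa1b (1.99) and Ehhadh (1.98) kept their direction but no longer passed, and Vnn1 (0.82) reversed; 0 genes then rose and 1 fell over all genes tested by edgeR, with 1857 under an unadjusted p of 0.05, and the lists had 0 that rose (0 peroxisomal) and 0 that fell. Title numbers run from 1 to 29 in responders and from 26 to 37 in non-responders, and what they stand for is not given. Limma-voom reversed Acot2 (0.26) and Cpt1a (-0.053) and called Vnn1 (-2.95); the 3′ coverage covariate reversed Acot2 (0.21) and Cpt1a (-0.16). Fgf21 passed with DESeq2 (-2.47), a filter at 1 CPM in 4 libraries (-2.49) and no robust estimate (-2.48). All genes that rose numbered 723 by edgeR, 1339 by DESeq2 and 1621 by limma-voom, and those that fell 1025, 1694 and 2021; in the lists 21, 36 and 33 rose and 2, 6 and 11 fell, with 1 that fell without a count filter. Leaving out each library gave 1.599 to 1.996 for Acot1, -0.28 to 0.19 for Acot2, 1.38 to 1.92 for Acaa1b, 1.06 to 1.52 for Ehhadh, -0.16 to 0.20 for Cpt1a, -0.96 to -0.48 for Pdk4, -2.93 to -1.72 for Fgf21 and -2.07 to -1.15 for Vnn1. It gave 38 to 836 genes that rose and 41 to 1158 that fell, in all lists together 1 to 22 and 1 to 5, with a median over all their genes of 0.27 to 0.37, and 0 to 9 peroxisomal genes that rose. The cause of these changes was not tested. No paired analysis was possible because no number is shared between the groups: title numbers are unique and replicate numbers follow accession order. Members under about 10 CPM, such as Acot2 with 76 to 189 counts per library, carry more counting error than Acaa1b, Ehhadh and Cpt1a.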
